A study of Mus musculus with 21 samples.

Results

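This account covers the places in the mouse genome where DNA was recovered with Cdk1-labelled proteins and where no H3K79me2 was called. Cdk1 is the main mitotic cyclin-dependent kinase, and in these cells it carries an analog-sensitive form that accepts a bulky ATP analog and that the inhibitor 3-MB-PP1 blocks. Thio-ChIP is chromatin immunoprecipitation of substrates that the kinase has labelled with a thiophosphate group from the analog, using an antibody to thiophosphate ester. A Thio-ChIP peak was counted as mark-free when it shared no base pair with any H3K79me2 peak, either of cells given 3-MB-PP1 or of cells given the solvent DMSO. The members were thus chosen by the called positions of all 3 lists, and no score entered the choice. By this rule 4306 of 7924 Thio-ChIP peaks were mark-free, a share of 54.3% (95% Clopper-Pearson interval 53.2 to 55.4%). A further 766 peaks (9.67%) overlapped H3K79me2 of the 3-MB-PP1 list alone, and 2852 (36.0%) overlapped H3K79me2 of the DMSO list. Thio-ChIP peaks met the mark more often than the same peaks moved by 1000 kb either way. In place 44.4% overlapped the 3-MB-PP1 list, against 9.54 and 10.6% after the move. For the DMSO list the overlap was 36.0% in place, against 4.71 and 5.49%. Intervals of shares here cover counting error only, since each list came from 1 library and peaks of 1 library are not replicates. No p-value is therefore given.

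H3K79me2 is dimethylation of lysine 79 of histone H3, which lies in the core of the nucleosome and not on its tail. Dot1l is the only enzyme known to deposit it in mammals, and the mark is best known from the transcribed part of active genes, downstream of their start. Dot1l travels with factors of transcription elongation, so chromatin that is bound by regulators but not transcribed usually lacks the mark. Cdk1 phosphorylates many chromatin proteins as cells enter mitosis.

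The cells were V6.5 mouse embryonic stem (ES) cells, homozygous for the analog-sensitive allele (Cdk1as/as) in all the groups used here. For Thio-ChIP they were placed in N2B27 medium and given 500 nM retinoic acid together with 1 µM 3-MB-PP1 for 16 h to gather them at G2/M, and after the inhibitor was washed off they were permeabilised and labelled for 25 min. The Thio-ChIP library had its own input. For H3K79me2, cells kept without feeders were exposed over 4 days to 1 µM 3-MB-PP1 or to DMSO, with 1 library and 1 input each. Retinoic acid was thus given to the Thio-ChIP cells and is not listed for the H3K79me2 cells. A peak without the mark therefore lacked it in another culture, and H3K79me2 in the labelled cells themselves was not measured. In the 3 untreated Cdk1as/as ES cell RNA libraries, ES cell identity was checked on 8 marker genes, which lay between 55.2 FPKM (Zfp42) and 1298 FPKM (Dppa5a) on average. Pou5f1, a core pluripotency factor, was at 929 ± 32.1 FPKM (SD, n = 3). The 5 neural markers lay between 1.17 and 6.59 FPKM. The 8 fibroblast markers lay between 1.35 and 121 FPKM, with a median of 7.44 FPKM and none at 0. The highest was the contractile gene Tagln, and the cells were maintained on a fibroblast feeder layer. In the same libraries Cdk1 was at 277 ± 38.4 FPKM and Dot1l at 13.7 ± 0.802 FPKM (SD, n = 3). These markers were not measured in the cells used for ChIP.

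The Thio-ChIP list covered 13.7 Mb in peaks with a median width of 1614 bp. The 3-MB-PP1 list held 22352 H3K79me2 peaks over 132 Mb and the DMSO list 13437 peaks over 59.9 Mb, so the 3-MB-PP1 list was the larger of the 2 in number and in length. The share of mark-free peaks was 55.6% against the 3-MB-PP1 list alone and 64.0% against the DMSO list alone. Only 96 Thio-ChIP peaks touched the DMSO list without touching the 3-MB-PP1 list. Positions below are those of the lists, counted from 1. The lists share a build that is not GRCm38, and mm9 is the other build that the submitters' processing notes name. Genes in the tables used here lie in GRCm38, so no gene is named at a peak.

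The limit of the rule ran through closely spaced values. The mark-free peaks nearest to the mark were at chromosome 5, 25004785 to 25006329 (score 170), and at chromosome 1, 43501661 to 43503583 (score 233), each 0.001 kb from a 3-MB-PP1 peak. Next came the peak at chromosome 11, 70577167 to 70578706 (score 174), which was 0.002 kb from a 3-MB-PP1 peak, although its nearest DMSO peak lay 61.3 kb away. Just outside the rule, the peak at chromosome 1, 37596896 to 37597951 (score 92) shared 3 bp with a 3-MB-PP1 peak. The peak at chromosome 2, 121631767 to 121633528 (score 133) shared 4 bp with a 3-MB-PP1 peak, and the one at chromosome 7, 51843874 to 51847128 (score 386) shared 4 bp with a DMSO peak. Peaks that overlapped the mark were often covered only in part. The median covered share of their width was 44.0%, and 25.7% of them were covered over their whole width. If at least 50% of a Thio-ChIP peak had to be covered, 80.5% of the list would count as mark-free.

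Mark-free peaks had lower scores than peaks at the mark. The score is the authors' own value per peak, which the deposited files do not define. Its median was 143 in mark-free peaks (middle 50% of peaks from 111 to 200), 157.5 in peaks at H3K79me2 of the 3-MB-PP1 list alone (117 to 220), and 176 in peaks at DMSO H3K79me2 (124 to 256). Of the mark-free peaks, 35.1% scored above 171, the median of all peaks at the mark (interval 33.6 to 36.5%). The ranges overlapped widely, since all classes began at the lowest score of the list, 90. On each of the 20 chromosomes the median score of mark-free peaks was below that of peaks at the mark, with medians of 127 to 157 for mark-free peaks and 148 to 190 for peaks at the mark.

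**Figure D1:**
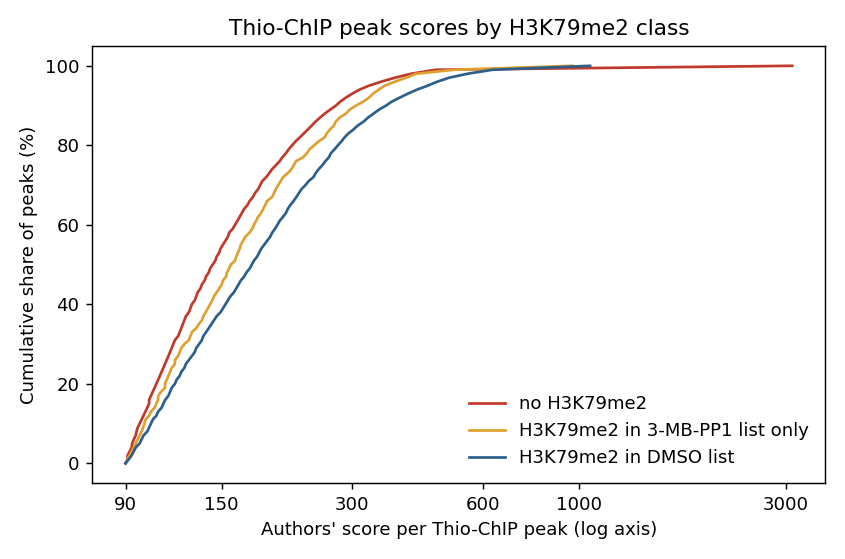
Cumulative share of Thio-ChIP peaks (vertical axis, %) up to a given score (horizontal axis, log scale), with 1 line for each class of peak by overlap with H3K79me2. The line of the 4306 mark-free peaks lies left of the others, with a median of 143 against 157.5 and 176, and reaches farthest right through 1 peak with a score of 3100.

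The share of mark-free peaks fell along the list as scores increased. The list was cut into 10 bins of equal size by score. The share was 66.0% in the lowest bin (90 to 99, interval 62.5 to 69.2%) and 54.2% in bin 6 (154 to 176). In the highest bin (307 to 3100) it was 35.2% (interval 31.9 to 38.6%). Among the 100 highest-scoring peaks 22 were mark-free. The share of peaks at 3-MB-PP1 H3K79me2 alone showed no such trend and lay between 7.44 and 11.2% in all 10 bins. Peaks at DMSO H3K79me2 took up the difference, at 24.8% of the lowest bin and 55.1% of the highest.

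Mark-free peaks were also somewhat narrower, with a median width of 1562 bp against 1675 bp for peaks at the mark. The difference lay mainly among the narrowest peaks. With 10 bins of equal size by width, 75.9% of the peaks between 542 and 1199 bp wide were mark-free (interval 72.8 to 78.9%), whereas from 1427 bp upward the share lay between 44.6 and 53.5% in each bin. A wider peak has more bases with which to meet a mark peak, so width and the rule are not independent. The list was therefore also split into 3 groups of equal size by score and by width at once. Among narrow peaks (542 to 1455 bp) the share of mark-free peaks was 68.5% at low scores (90 to 126) and 49.5% at high scores (194 or more). Among wide peaks (1813 bp or more) it was 55.2% at low, 57.7% at middle (126 to 193) and 41.8% at high scores. Among peaks of middle width it was 54.9, 53.4 and 45.4% in the same order. The share was thus lower at high than at low scores at each width, but among wide peaks it did not fall from low to middle scores. At middle scores 498 of 830 narrow peaks (interval 56.6 to 63.4%) and 418 of 725 wide peaks (54.0 to 61.3%) were mark-free, and these intervals overlapped.

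**Figure D2:**
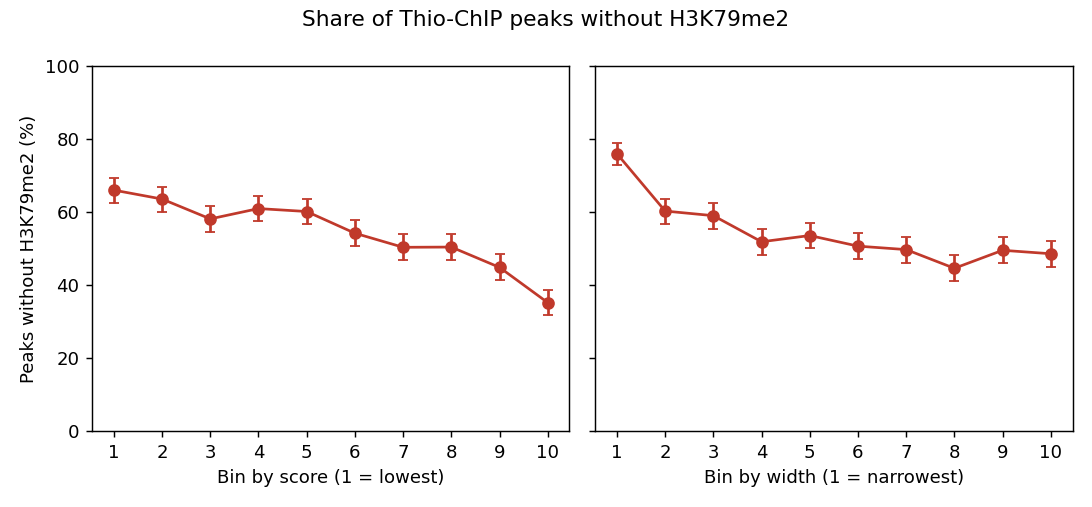
Share of Thio-ChIP peaks that were mark-free (vertical axis, %) in 10 bins of equal size by score (left, bin 1 lowest) and by width (right, bin 1 narrowest), with 95% Clopper-Pearson intervals as bars. The share is 66.0% in the lowest and 35.2% in the highest bin by score, and by width it is highest, at 75.9%, in the narrowest bin.

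By the rule the distances of mark-free peaks to the mark start just above 0, and they ran to 5145 kb. They were not compared with the distances of random positions, so whether these peaks lay farther from the mark than the genome at large was not tested. The median distance to the nearest H3K79me2 peak of either list was 31.5 kb, and the middle 50% of the peaks lay between 5.45 and 105 kb from it. In classes, 551 peaks (12.8%) were within 1 kb of the mark, 489 (11.4%) at 1 to 5 kb, 736 (17.1%) at 5 to 20 kb, 1417 (32.9%) at 20 to 100 kb and 1113 (25.8%) at 100 kb or more. The stretch between the flanking H3K79me2 peaks that held a mark-free peak had a median length of 217 kb. The farthest members stood in large stretches without the mark. The peak at chromosome 14, 94289473 to 94290752 (score 119) was 5145 kb from the nearest mark peak, and the one at chromosome 3, 46251100 to 46252317 (score 204) was 4706 kb from it. Another peak of chromosome 14, at 92446656 to 92447379, had the lowest score of the list, 90, and lay 4606 kb from the nearest mark peak.

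Peaks at the border of the mark had somewhat higher scores than distant ones. The median score was 158 within 1 kb of the mark, 147 at 1 to 5 kb, 137 at 5 to 20 kb and 140 in each of the 2 classes beyond. The share of peaks that scored in the highest of the 10 bins was 9.80% within 1 kb and 4.94% at 20 to 100 kb, and 6.56% at 100 kb or more. Median widths were between 1515 and 1590 bp in all 5 classes. Near the mark, mark-free peaks stood beside it and rarely between 2 mark peaks. Of the 1040 within 5 kb of the mark, 955 had it on 1 side and 85 on both sides, and of the 551 within 1 kb only 18 had it on both sides within that distance.

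Mark-free peaks were nearer to the 3-MB-PP1 list than to the DMSO list. The median distance was 32.1 kb to the nearest peak of cells given 3-MB-PP1 and 59.4 kb to that of cells given DMSO. For 3528 peaks (81.9%) the 3-MB-PP1 list was nearer by more than 100 bp, for 438 (10.2%) the DMSO list was, and for 340 (7.90%) both were equally near to within 100 bp. The number within 1 kb was 523 for the 3-MB-PP1 list and 213 for the DMSO list. In all 562 peaks had the mark within 5 kb in the 3-MB-PP1 list and not in the DMSO list, 16 the reverse, and 462 had it in both. The 3-MB-PP1 list held more peaks and covered more of the genome, and its depth relative to the DMSO list is unknown, so how far these distances follow from the number of peaks called was not tested.

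**Figure D3:**
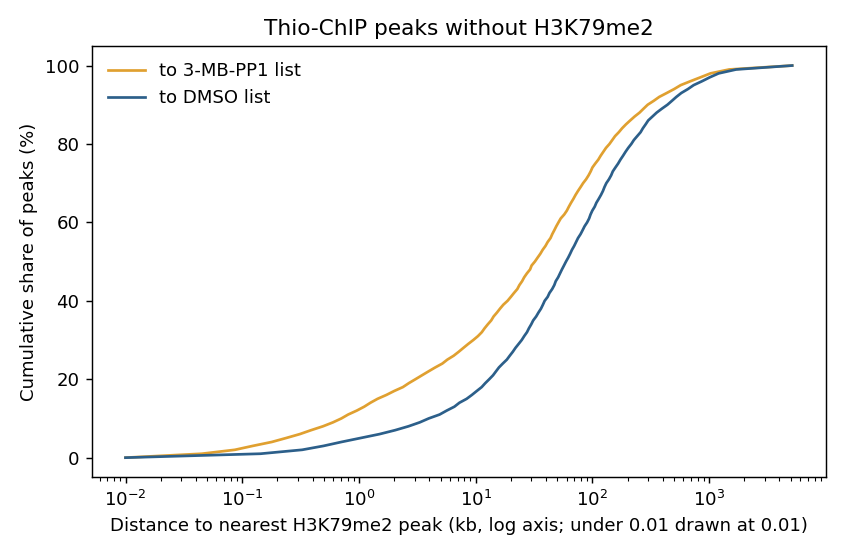
Cumulative share of the 4306 mark-free peaks (vertical axis, %) by distance to the nearest H3K79me2 peak (horizontal axis, kb, log scale), with 1 line for the 3-MB-PP1 list and 1 for the DMSO list. The 3-MB-PP1 line lies left of the DMSO line over most of its length, with medians of 32.1 and 59.4 kb.

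The mark peaks beside mark-free peaks were smaller than those that Thio-ChIP peaks overlapped. In the 3-MB-PP1 list, the 523 mark peaks nearest to a mark-free peak and under 1 kb away had a median width of 3402 bp and a median score of 24, and the 491 at 1 to 5 kb had 2038 bp and 20. The 3455 mark peaks overlapped by a Thio-ChIP peak had 9261 bp and 63, and the whole list had 2320 bp and 19. In the DMSO list the corresponding medians were 1762 bp and 23 under 1 kb, 1558 bp and 24 at 1 to 5 kb, and 5169 bp and 52 for overlapped mark peaks, against 2073 bp and 24 for the whole list. Mark peaks under 1 kb from a mark-free peak thus had a larger median width than their whole list in the 3-MB-PP1 list and a smaller one in the DMSO list. Mark peaks of 10 kb or more made up 21.2% of those under 1 kb from a mark-free peak in the 3-MB-PP1 list (interval 17.8 to 25.0%), 47.6% of those overlapped and 15.9% of the whole list. In the DMSO list these shares were 11.8% (interval 7.78 to 16.9%), 28.1% and 10.6%. A wide mark peak is more likely to be overlapped by its width alone, which the rule does not correct for.

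The surroundings of mark-free peaks also held less of the mark. Within 100 kb on each side, the 3-MB-PP1 list covered a median of 10.5 kb around mark-free peaks, 29.4 kb around peaks at 3-MB-PP1 H3K79me2 alone and 35.7 kb around peaks at DMSO H3K79me2. For the DMSO list these medians were 2.96, 8.91 and 17.2 kb. No 3-MB-PP1 peak lay in this window for 26.0% of mark-free peaks, and no DMSO peak for 36.9%. Part of the difference is built in, because the window around the other classes contains by definition the mark peak that they overlap.

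Mark-free peaks tended to stand next to one another. The nearest other Thio-ChIP peak was itself mark-free for 58.7% of mark-free peaks (interval 57.2 to 60.2%), for 46.6% of peaks at 3-MB-PP1 H3K79me2 alone and for 46.5% of peaks at DMSO H3K79me2, beside 54.3% of the whole list. It lay within 10 kb for 18.5% of mark-free peaks (interval 17.3 to 19.7%), for 13.2% of peaks at 3-MB-PP1 H3K79me2 alone (10.9 to 15.8%) and for 12.5% of peaks at DMSO H3K79me2 (11.3 to 13.8%). The median distance to it was 55.1 kb for mark-free peaks, 61.3 kb for peaks at 3-MB-PP1 H3K79me2 alone and 55.4 kb for peaks at DMSO H3K79me2. The middle 50% of distances ran from 15.9 to 152 kb for mark-free peaks, from 22.4 to 123 kb for peaks at 3-MB-PP1 H3K79me2 alone and from 22.4 to 125 kb for peaks at DMSO H3K79me2, so the distances of mark-free peaks spread more widely at both ends.

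Successive mark-free peaks with gaps of at most 50 kb, a limit chosen after seeing the data, were joined into chains. In all 1442 mark-free peaks (33.5%) fell in 588 chains of 2 or more, and 26 chains held 5 or more peaks, 13 of them with no H3K79me2 peak of either list inside. Chains were not built for peaks at the mark or for the whole list. Whether mark-free peaks form chains more often than other Thio-ChIP peaks was therefore not tested. The longest in number had 9 peaks over 154 kb of chromosome 7 (51565337 to 51718882). Their scores were 248, 100, 100, 439, 353, 289, 193, 323 and 238 in order of position. Of these peaks 7 scored above 154, the median of the Thio-ChIP list, and the chain had 1 peak of the 3-MB-PP1 list and none of the DMSO list inside it. On chromosome 11, 8 peaks over 207 kb (101742375 to 101949811) scored between 99 and 262. All stood at least 79.5 kb from the nearest 3-MB-PP1 peak and 79.8 kb from the nearest DMSO peak.

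Other chains were denser. On chromosome 6, 6 peaks lay within 35.0 kb (52107564 to 52142585), with scores of 532, 207, 133, 185, 93 and 165 in order of position. The nearest mark peak was 46.9 kb away in the 3-MB-PP1 list and 48.6 kb away in the DMSO list. On chromosome 15, 6 peaks lay within 30.5 kb (98607991 to 98638470), and their scores of 99 to 228 were lower, with 1 above the median of the list. The chain of 7 peaks on chromosome 18 (36032892 to 36125752) held 1 of the highest-scoring mark-free peaks, with a score of 703, beside others at 118 to 277. It began 16.7 kb from the end of a 3-MB-PP1 mark peak, and no mark peak of either list lay inside it. Which genes these stretches hold was not determined.

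**Figure D4:**
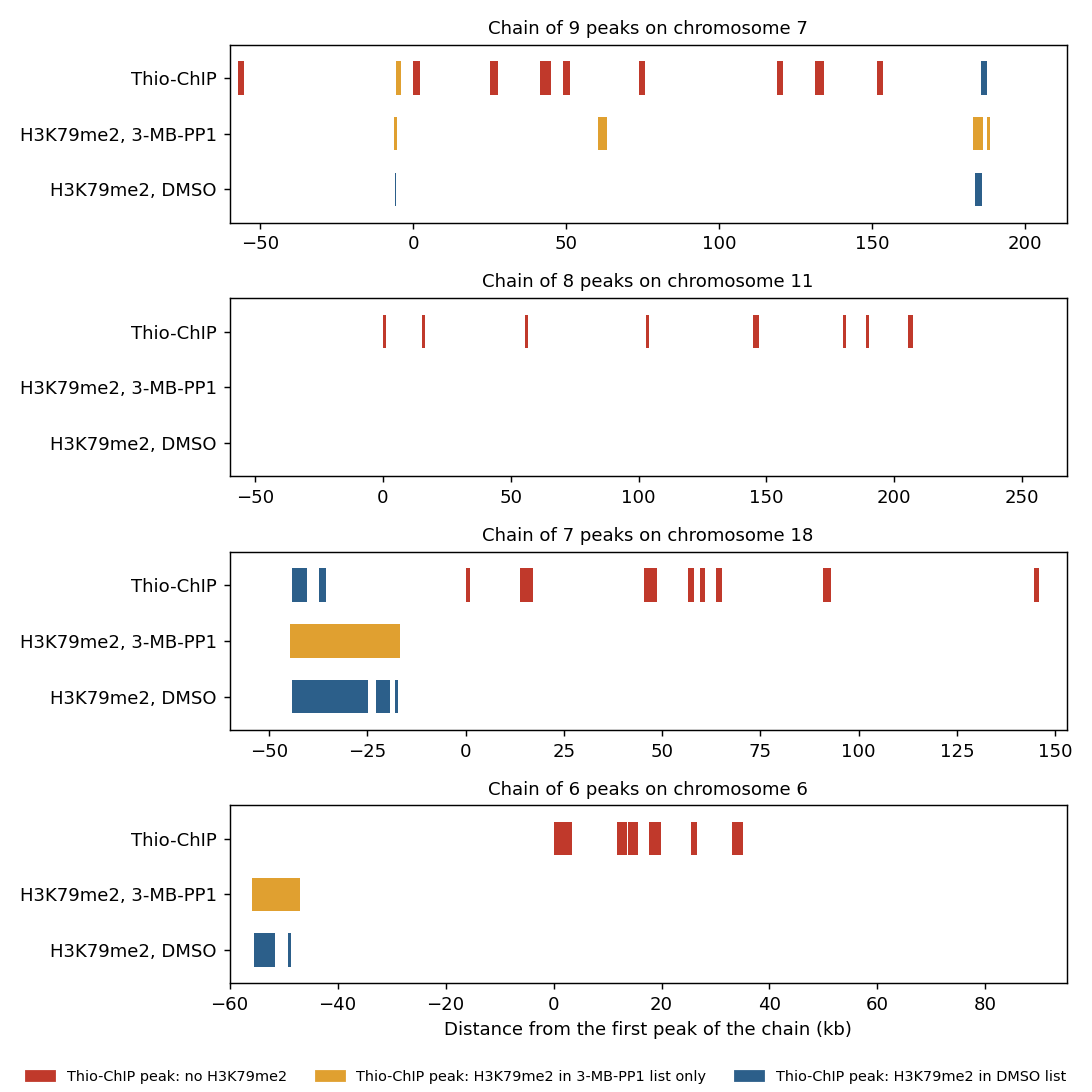
Maps of 4 chains of successive mark-free Thio-ChIP peaks, with the distance from the first peak of the chain on the horizontal axis (kb) and 1 row each for Thio-ChIP peaks and for H3K79me2 peaks of the 3-MB-PP1 and DMSO lists, with the flanks of each chain. Thio-ChIP peaks are coloured by class. The chain of 9 peaks on chromosome 7 has 1 H3K79me2 peak inside it, and the other 3 have none.

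The 10 mark-free peaks with the highest scores lay both beside and far from the mark. The first, at chromosome 17, 39979444 to 39986339, had a score of 3100 and a width of 6896 bp, and stood 625 kb from the nearest 3-MB-PP1 peak and 1029 kb from the nearest DMSO peak. It was the highest score of the whole list, with the highest score of a peak at the mark being 1060. The lists were used as called, and no filter for repeated sequence or artefact regions was added here. Whether this peak comes from such a region was not tested. The second, at chromosome 13, 46058355 to 46061226, scored 866 and was 565 kb from the nearest mark peak. On chromosome 7 the peak at 37480361 to 37483806 scored 623 and was 892 kb from the mark. Intermediate distances were found at chromosome 19, 61300552 to 61304887 (score 714), which was 84.0 kb away, and at chromosome 14, 62299605 to 62302394 (score 651), which was 32.4 kb away. The peak with a score of 703 in the chain on chromosome 18, at 36046658 to 36050066, was 30.5 kb from the nearest 3-MB-PP1 peak and 30.9 kb from the nearest DMSO peak.

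The remaining 4 of these 10 peaks lay within 5 kb of the mark in at least 1 list. The peak at chromosome 1, 179187063 to 179189803, scored 718 and ended 0.143 kb from a DMSO peak and 0.666 kb from a 3-MB-PP1 peak. At chromosome 3, 136332154 to 136335269 (score 599), the distances were 0.373 kb to the 3-MB-PP1 list and 0.586 kb to the DMSO list. At chromosome 17, 32302319 to 32304675 (score 613), they were 3.94 and 4.45 kb. The peak at chromosome 7, 35437512 to 35441295 (score 624) differed between the lists, with a 3-MB-PP1 peak 2.69 kb away and the nearest DMSO peak 261 kb away. The widest mark-free peak, at chromosome 5, 109981138 to 109988759, measured 7622 bp, scored 483 and was 120 kb from the mark.

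The share of mark-free peaks varied moderately between chromosomes. It was highest on chromosome X, where 68 of 104 Thio-ChIP peaks were mark-free (65.4%, interval 55.4 to 74.4%), and lowest on chromosome 16 with 113 of 238 (47.5%, interval 41.0 to 54.0%). The interval lay above the 54.3% of the whole list on 3 of 20 chromosomes and below it on 2. Chromosome X held 1.31% of the Thio-ChIP list, 2.37% of the 3-MB-PP1 list and 2.22% of the DMSO list, and its mark-free peaks had the lowest median score of all chromosomes, 127. Without chromosome X the share of mark-free peaks was 54.2%.

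**Figure D5:**
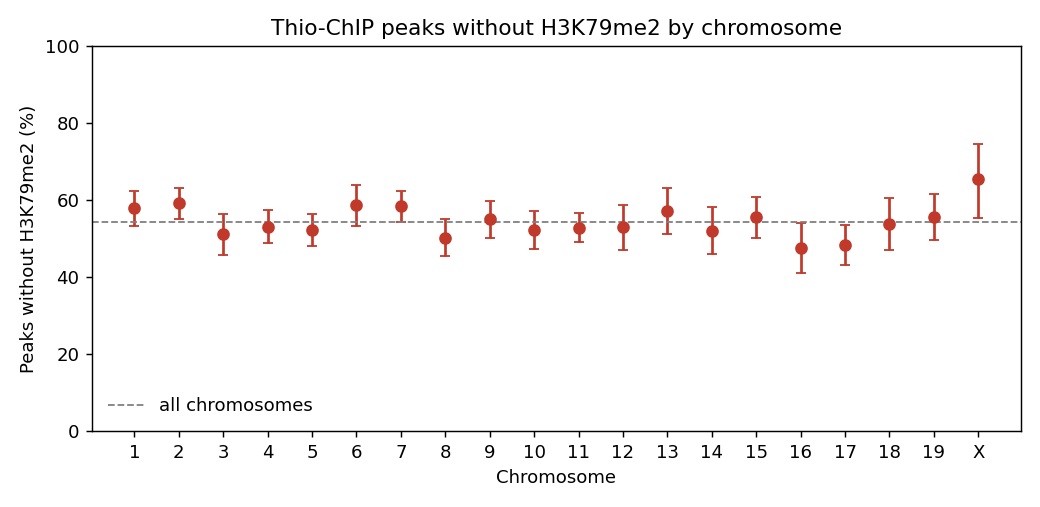
Share of Thio-ChIP peaks that were mark-free (vertical axis, %) on each chromosome (horizontal axis), with 95% Clopper-Pearson intervals as bars and the share over all chromosomes, 54.3%, as a dashed line. Chromosome X is highest at 65.4% and has the widest interval, from 104 peaks.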

How the data were processed

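Each deposited list holds positions, a name and a score per peak from the authors, and nothing in the labels or files defines that score. Peaks came from 1 ChIP library per list, with its input named in the labels. Per the submitters' processing notes, Bowtie, Bowtie2 2.2.9, MACS 1.4.2 and MACS2 2.1.1 belonged to the work, without their roles, and the builds listed there are mm9 and GRCm38. Caller thresholds and read depth are unknown, so how far a missing mark peak goes with depth was not tested. The ES cell table, used only for markers, was taken as FPKM as deposited by the authors, from its layout and values.

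The overlap of Thio-ChIP peaks with the 3-MB-PP1 list was 44.4% with no shift and 14.6 to 18.6% when positions were moved by 20 or 100 kb either way. On 17 of 19 chromosomes the shift that best placed peaks at GRCm38 gene starts was the same for all 3 lists to within 5 kb. That shift reached 2524 kb for the Thio-ChIP list and was 0 on 1 chromosome, so the lists were treated as 1 build other than GRCm38. Planned work on gene starts, expression, Dot1l knockout and sequence at these peaks was therefore not run.

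Overlap (minimum 1 bp) and distance were computed in Python 3.11.15 with pandas 2.3.3, tested on simulated intervals and checked with bedtools 2.31.1. Intervals are from scipy 1.17.1. Peaks were named by rule: the 10 highest scores, the 3 nearest to the limit on each side and the 3 farthest from the mark. The widest peak and the chains were chosen after their values were seen. Members and lists were chosen with earlier results of these data known.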

Additional observations from a re-analysis of the deposited data

How the results depend on the processing

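The share of Thio-ChIP peaks without H3K79me2, 54.3%, moved with the definition of overlap. It was 80.5% when 50% of the Thio-ChIP peak had to be covered, 47.4% when a gap of up to 1 kb counted as overlap and 41.2% with a gap of up to 5 kb. It was 55.6% with the 3-MB-PP1 list alone, 64.0% with the DMSO list alone, 57.4% with the H3K79me2 peaks at or above the median score of each list and 47.0% with the Thio-ChIP peaks at or above the median score. Without chromosomes X and Y it was 54.2%. The first 6 of these alter the rule itself, and the cause of the change with the Thio-ChIP score was not tested. The share of mark-free peaks that scored above the median of peaks at the mark, 35.1%, lay between 34.1 and 35.5% under the 3 alternatives run. The corresponding share for width, 39.2%, was 41.3% with a gap of up to 5 kb and within its interval under the other 2. The share of mark-free peaks in chains, 33.5%, was 21.1% with gaps of at most 20 kb and 45.4% with at most 100 kb, limits added after seeing the data. Alternatives for gene starts, expression and Dot1l knockout were not run, because peaks were not joined to genes. No paired analysis was possible because the peak lists have 1 library each. A mark below the authors' calling threshold would count here as absent, and read depth is unknown.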
